A study of Homo sapiens and Mus musculus with 28 samples.

Results

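The comparison described here sets 3 RNA-seq libraries of REXO4-knockout SCC1 cells treated with BX-795 against 3 labelled with the same knockout and treated with H-151. SCC1 is an established human head and neck squamous carcinoma cell line. The 6 libraries were chosen by their labels and are 6 of the 28 RNA-seq libraries of a study of REXO4 loss in SCC1 cells and in mouse tumours. REXO4 is a predicted exonuclease of the nucleolus. The treated groups are labelled KO_2 BX_795 and KO_2 H151, and the number in both labels is that of the second REXO4 knockout. The other groups used are R4KO_2 Vehicle, the second knockout given vehicle, R4KO_1 Vehicle, the first knockout given vehicle, and Ctrl Vehicle, the control cells given vehicle, with 3 libraries each. A separate experiment in SCC1 cells, with 3 libraries each of H151_iR4, iR4 and Vehicle, is used once, for H-151 in other libraries. The name iR4 is written as the labels give it. The dose, the time of exposure, the vehicle, whether a knockout is 1 clone or a pool, and whether replicates came from separate cultures were not given in the sources used here, so the p-values measure the spread between these libraries, which may be technical. With BX-795 and H-151, 1 pair of compounds was compared.

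The innate pathway that both compounds act on starts with cGAS, which senses DNA in the cytosol and makes a messenger that activates the adaptor STING. STING recruits the kinase TBK1, which phosphorylates the transcription factor IRF3 and so switches on type I and type III interferons and interferon-stimulated genes. TBK1 and its relative IKKε, encoded by IKBKE, also feed into NF-kB, a family of factors that drives cytokines, chemokines, complement genes and its own inhibitors. H-151 is a covalent inhibitor of STING. BX-795 was first described as an inhibitor of PDK1 and inhibits TBK1, IKKε and several other kinases, among them Aurora B, ULK1, MARK3 and NUAK1.

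REXO4 itself had 19.6, 18.9 and 18.7 CPM (read counts scaled to the size of the library) with BX-795, 17.4, 17.01 and 19.8 CPM with H-151, 7.05, 7.11 and 5.03 CPM in R4KO_2 Vehicle, 9.33, 9.99 and 9.43 CPM in R4KO_1 Vehicle and 75.2, 77.9 and 71.9 CPM in Ctrl Vehicle. Every knockout library lay below every control library, and the 2 inhibitor groups overlapped (log2 fold change 0.07, edgeR adjusted p = 0.623). Both inhibitor groups held more REXO4 than R4KO_2 Vehicle, which by its number is the same knockout, with log2 fold changes of 1.57 for BX-795 and 1.5 for H-151. A set of 19 genes was chosen to mark R4KO_1 Vehicle. Their mean there was at least 1 CPM and at least 4-fold above the means of R4KO_2 Vehicle and of Ctrl Vehicle. By that choice their median level was high in R4KO_1 Vehicle (1.22) and low in R4KO_2 Vehicle (-1.59) and Ctrl Vehicle (-1.49), on the log2(CPM + 0.1) scale. The choice left only the inhibitor values free, and these medians were 1.17 with BX-795 and 1.38 with H-151. Genes that mark R4KO_2 Vehicle in the same way were not looked for. In those 19 genes both inhibitor medians were near that of R4KO_1 Vehicle, while the low median of R4KO_2 Vehicle was set by the choice. A difference from R4KO_2 Vehicle cannot be told apart from a possible difference in the cells treated. Between BX-795 and H-151, 1 of the 19 was higher and 2 were lower, against 5.67% higher and 3.99% lower over all genes tested. Their median log2 fold change was 0.11.

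Depth ran from 21355791 to 27937636 counts with BX-795 and from 21515031 to 26619845 counts with H-151, against 17525228 to 17673227 counts in R4KO_2 Vehicle. In a principal component analysis of the 6 libraries the first component, with 41.5% of the variance, put all 3 BX-795 libraries on one side and all 3 H-151 libraries on the other. The 9 squamous markers summed to between 2456 and 2503 CPM with BX-795 and between 1904 and 1948 CPM with H-151, without TMM scaling. The keratins KRT5, KRT6A, KRT14 and KRT17 and SFN were the members with clearly higher means with BX-795, TP63 was close, at 85.7 CPM with BX-795 and 81.6 CPM with H-151, and EPCAM, CDH1 and DSG3 had the lower mean with BX-795, at 222, 22.1 and 19.9 CPM with BX-795 and 237, 23.1 and 26.01 CPM with H-151. The 5 leukocyte markers summed to between 0.89 and 1.197 CPM with BX-795 and between 0.639 and 0.883 CPM with H-151, with CD3E at 0 in both groups and PTPRC at 2 counts over the BX-795 libraries and 3 over the H-151 libraries. The 5 fibroblast markers summed to between 45.6 and 46.8 CPM with BX-795 and between 37.2 and 38.2 CPM with H-151, with PDGFRA at 0 in both and DCN also at 0 with H-151. Nearly all of that sum was COL1A1, at 45.4 CPM with BX-795 and 37.01 CPM with H-151, and LUM, at 0.326 CPM with BX-795 and 0.429 CPM with H-151, went the other way.

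Of 14348 genes tested, 814 (5.67%) were higher and 573 (3.99%) were lower with BX-795 than with H-151 at an adjusted p under 0.05, from edgeR's quasi-likelihood test with Benjamini-Hochberg adjustment over all genes. In either direction that is 1387 genes (9.67%). All 3 BX-795 libraries lay above all 3 H-151 libraries in 2486 genes (17.3%) and below them in 2348 genes (16.4%), whatever the test gave. Most differences were small. The median log2 fold change was 0.33 among the genes that were higher and -0.22 among those that were lower, and 194 higher against 24 lower genes reached 1.5-fold. At 2-fold, 65 genes (0.453%) were higher and 2 (0.0139%) were lower. These 2, named after their values were seen, were CA9, a carbonic anhydrase induced by hypoxia (log2 fold change -1.27), and the noncoding RNA PPP1R3B-DT (-1.07). Both had low counts. CA9 had 16, 7 and 25 counts with BX-795, against 42, 41 and 28 with H-151. PPP1R3B-DT had 11, 6 and 7 counts with BX-795, against 15, 16 and 18 with H-151. Of the 65, 33 lay below 1 CPM, at a mean log2 CPM under 0 over the 6 libraries, 18 lay between 0 and 2, 14 between 2 and 5, and none of the 6521 genes above 5 reached 2-fold upward. Protein-coding genes made up 792 of the 814 and 554 of the 573. The counts differed with the libraries in the fit: with the 6 inhibitor libraries alone, in place of the 15 of the knockout experiment, 1405 of 14142 genes (9.93%) were higher and 1248 (8.82%) lower, and these took in 1382 of the 1387 genes called with 15. The median SD of log2 CPM between replicates was 0.0936 in R4KO_1 Vehicle and 0.0895 in Ctrl Vehicle, which enter only the fit of 15, against 0.064 with BX-795 and 0.0646 with H-151, and the part of this spread and of the number of libraries in the counts was not tested. Leaving out any 1 of the 6 libraries gave 492 to 621 higher and 299 to 394 lower genes. The higher count moved by over 1.5 times without BX-795 replicate 1 (533) or 3 (514) or H-151 replicate 2 (520) or 3 (492), and the lower count without any library but BX-795 replicate 2.

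**Figure D1:**
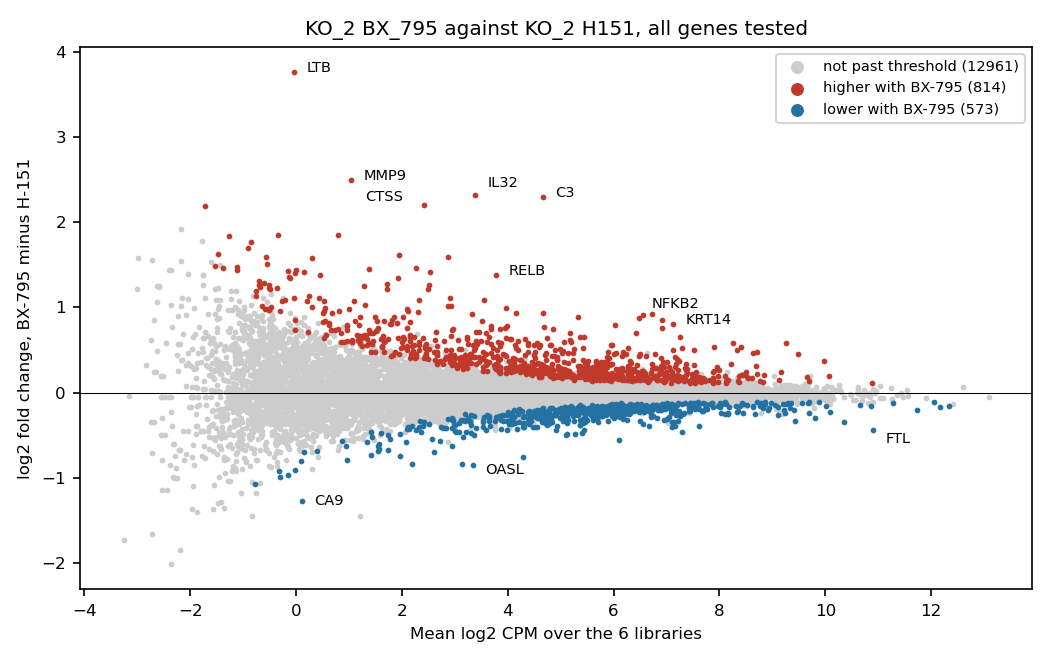
Each point is 1 of the 14348 genes tested, with its mean log2 CPM over the 6 libraries on the x axis and its log2 fold change (BX-795 minus H-151) on the y axis. Red points (814) were higher and blue points (573) lower with BX-795. The largest upward differences lie at low to middle levels, and downward differences beyond 1 log2 unit are few.

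The 10 largest rises, taken from called genes whose groups did not overlap and whose mean log2 CPM reached 2, included secreted immune proteins (IL32, C3, LRG1, PTX3) and parts of TNF-family and NF-kB signalling (TNFRSF9, RELB). IL32, a cytokine of epithelial and T cells that lies at chr16:3065297-3082192 (hg38, plus strand), had 22.5, 22.4 and 24.4 CPM with BX-795, against 4.57, 4.45 and 4.85 CPM with H-151. Every BX-795 library was far above every H-151 library, and the log2 fold change was 2.32 (SE 0.18, edgeR adjusted p = 1.45e-08). In R4KO_2 Vehicle it averaged 18.5 ± 2.43 CPM (mean ± SD, n = 3, as for all such values), between the 2 inhibitor groups. C3, the central protein of complement (chr19:6677704-6730562, minus strand, overlapping GPR108 on the same strand), had 56.6, 54.03 and 57.5 CPM with BX-795, against 11.99, 11.1 and 11.01 CPM with H-151. Again the groups were far apart, with a log2 fold change of 2.3 (SE 0.11, edgeR adjusted p = 1.72e-11), and R4KO_2 Vehicle averaged 14.5 ± 2.43 CPM, close to the H-151 libraries.

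CTSS, the cysteine protease cathepsin S that trims the invariant chain of MHC class II (chr1:150730196-150765957, minus strand), had 11.2, 11.4 and 10.97 CPM with BX-795, against 2.24, 2.63 and 2.404 CPM with H-151. The 3 BX-795 libraries lay within 1 CPM of each other and the log2 fold change was 2.2 (SE 0.12, edgeR adjusted p = 8.63e-11). TNFRSF9, the costimulatory receptor 4-1BB (chr1:7915894-7943165, minus strand), had 12.4, 12.2 and 12.8 CPM with BX-795, against 3.88, 4.599 and 4.03 CPM with H-151. The BX-795 libraries stood at about the level of R4KO_2 Vehicle, 12.03 ± 1.78 CPM, and the H-151 libraries were the low ones (log2 fold change 1.59, SE 0.19, edgeR adjusted p = 6.22e-06). RELB, the NF-kB subunit of the noncanonical pathway (chr19:45001430-45038198, plus strand), showed the same order, with 22.95, 21.1 and 21.8 CPM with BX-795, against 8.497, 8.43 and 8.45 CPM with H-151 and a mean of 17.9 ± 2.84 CPM in R4KO_2 Vehicle. Its log2 fold change between the inhibitors was 1.38 (edgeR adjusted p = 9.58e-06).

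The other 5 of these 10 genes were DMBT1, a scavenger receptor secreted by epithelia (log2 fold change 1.47), LRG1, an acute phase glycoprotein (1.41), PTX3, a secreted pattern recognition protein (1.27), NEDD9, a scaffold of focal adhesions (1.22), and APOL3, an apolipoprotein L induced by interferon gamma (1.12). All 5 passed the edgeR test, with adjusted p-values between 7.33e-09 and 1.08e-06. They differed in where vehicle lay. DMBT1 had 7.46, 8.08 and 7.91 CPM with BX-795 and 2.85, 2.92 and 2.71 CPM with H-151, both above its 0.4799 ± 0.051 CPM in R4KO_2 Vehicle. NEDD9 had 8.44, 9.14 and 7.91 CPM with BX-795 and 4.05, 3.64 and 3.26 CPM with H-151, both far below its 40.3 ± 2.4 CPM in R4KO_2 Vehicle, and APOL3 likewise had 10.8 ± 0.478 CPM with BX-795 and 5.02 ± 0.218 CPM with H-151 against 46.2 ± 0.626 CPM in R4KO_2 Vehicle. IL32, TNFRSF9, PTX3 and NEDD9 overlap a gene on the other strand, and whether the counting used strand is unknown here.

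**Figure D2:**
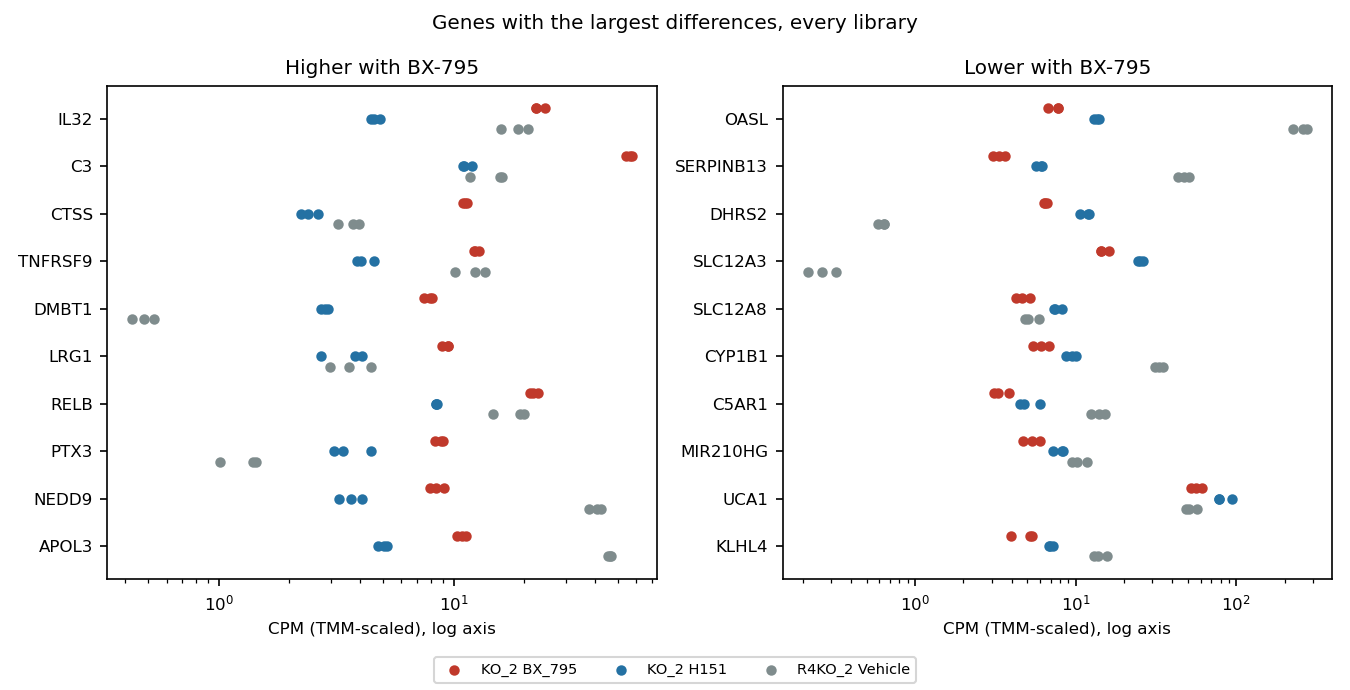
TMM-scaled CPM of the 10 largest rises and 10 largest falls, 1 point per library on a log axis, for KO_2 BX_795 (red), KO_2 H151 (blue) and R4KO_2 Vehicle (grey). The red and blue points do not overlap for any of the 20 genes, as the rule for choosing them required, while the grey points lie between them (IL32), beside one of them (TNFRSF9, UCA1) or far outside both (OASL, SLC12A3).

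NF-kB factors bind a short element with a run of G at one end and of C at the other, and the promoters of the rising genes were read for letters that match it. The promoters, 250 bases before to 50 after each gene's start, come from the RefSeq table for GRCh38.p14, whose starts can differ from the gene ends given above, and were found for 11196 of the 14348 genes tested. The stretches shown are those of rising cytokine, receptor and feedback genes, chosen to show the element that the shares below count, 20 bases on either side of the match, read along the gene, with the match to the NF-kB motif in capitals.
IL32 (chr16:3065284-3065333, plus strand): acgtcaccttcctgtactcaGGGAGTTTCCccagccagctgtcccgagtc
TNFRSF9 (chr1:7940884-7940933, minus strand): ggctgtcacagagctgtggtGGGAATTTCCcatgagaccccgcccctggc
LTB (chr6:31582482-31582531, minus strand): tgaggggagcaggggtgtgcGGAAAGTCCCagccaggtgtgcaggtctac
IL6 (chr7:22727107-22727156, plus strand): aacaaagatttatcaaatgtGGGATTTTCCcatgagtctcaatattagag
CXCL2 (chr4:74099244-74099293, minus strand): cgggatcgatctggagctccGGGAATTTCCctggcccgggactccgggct
NFKBIA (chr14:35404801-35404850, minus strand): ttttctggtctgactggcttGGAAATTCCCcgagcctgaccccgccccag
The matches begin 99 bases before the start in IL32, 74 in TNFRSF9, 86 in LTB, 73 in IL6, 78 in CXCL2 and 81 in NFKBIA. These are the matches shown, and LTB has another, from 38 to 47 bases after its start. IL32, TNFRSF9 and CXCL2 also have another each, which overlaps the match shown and reads on the opposite strand. These begin 98, 73 and 77 bases before the start. In LTB and NFKBIA the match shown reads on the strand opposite to the gene.

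Across all tested genes with a promoter in the table, 13% (1450 of 11196) held an NF-kB match on either strand. The share was 20.4% (126 of 619) among genes higher with BX-795, 23.9% (33 of 138) among those higher by 1.5-fold or more, 31.8% (14 of 44) among those higher by 2-fold or more, and 10.8% (51 of 472) among genes lower with BX-795. The share was thus above that of all promoters in each set of higher genes and below it in the lower genes. Of the 1450 matching promoters, 9 had the match overlapping another motif searched. The interferon-stimulated response element, on either strand, was in 4.8% of promoters of the higher genes, 2.5% of the lower genes and 2.8% of all. It was in 5.8% (8 of 138) of those higher by 1.5-fold or more and in 0 of the 44 higher by 2-fold or more. The AP-1 motif, TGANTCA, was in 6.9% of the higher genes, 10.1% of those higher by 1.5-fold or more and 11.4% (5 of 44) by 2-fold. It was in 5.5% of the lower genes and 5% of all, so NF-kB was not the only motif above its share over all promoters. The antioxidant response element, TGACNNNGC on either strand, was in 16.2% of the higher, 15% of the lower and 15.2% of all. The median GC content was 66.3% for the higher genes, 61.7% for those higher by 1.5-fold or more, 65.7% for the lower genes and 65% for all, and its part in these shares was not tested. A match is letters in a window and was not tested as a binding site, and NEDD9, NFKB2, CD83 and PSMB9 had none in theirs.

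Genes on the list of NF-kB feedback targets were higher as a group. The list holds its subunits and inhibitors and also other targets, such as ICAM1 and CD83. Of the 22 tested, 14 rose (63.6%) and 1 fell (4.5%), against 5.67% higher and 3.99% lower over all genes tested. Their median log2 fold change was 0.45, against -0.002 over all genes tested. The shares over all genes are also the ones to set beside the counts of the other lists in the same fit. NFKB2, the precursor of the noncanonical partner of RELB, had 122, 116 and 126 CPM with BX-795, against 64.2, 67.7 and 66.5 CPM with H-151. The groups did not overlap (log2 fold change 0.88, edgeR adjusted p = 8.47e-06). NFKBIA, the inhibitor that holds NF-kB in the cytosol, had 110.3, 104 and 115 CPM with BX-795, against 70.6, 68.1 and 64.7 CPM with H-151. All 3 BX-795 libraries were above and all 3 H-151 libraries below the 89.7 ± 6.54 CPM of R4KO_2 Vehicle, and the log2 fold change was 0.7 (edgeR adjusted p = 1.13e-05). CD83, a surface protein of activated antigen-presenting cells that NF-kB induces, rose by a log2 fold change of 0.89, and TNIP1, an adaptor that works with the ubiquitin editor A20, by 0.53. The 1 member that fell, named after its values were seen, was ICAM1, a leukocyte adhesion molecule, at 2.16 ± 0.08 CPM with BX-795 and 3.12 ± 0.25 CPM with H-151 (SD, n = 3 each, log2 fold change -0.52, edgeR adjusted p = 0.0369). The subunits RELA and REL, also named after their values were seen, did not pass the test, with log2 fold changes of -0.05 (95% interval -0.16 to 0.05) and -0.05 (-0.27 to 0.17). With each of the 6 libraries left out in turn, 10 to 12 of the 22 stayed higher and ICAM1 lost its call each time. The fit of 6 libraries alone called 18 higher and 1 lower, where it called 9.93% higher and 8.82% lower over all genes.

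Among cytokines, 8 of 18 tested rose (44.4%) and 1 fell (5.6%), against 5.67% and 3.99% over all genes. Their median log2 fold change was 0.59. LTB, lymphotoxin beta, a membrane ligand of the TNF family that triggers the noncanonical pathway, had the largest rise of any gene past the threshold, with 74, 52 and 93 counts with BX-795, against 6, 5 and 4 counts with H-151 and 1, 2 and 4 in R4KO_2 Vehicle. The counts are low, but every BX-795 library lay far above every H-151 library, and the log2 fold change was 3.77 (95% interval 3.15 to 4.38, edgeR adjusted p = 5.49e-08). IL6, the main inducer of acute phase proteins, had 6.48, 6.399 and 6.81 CPM with BX-795, against 2.46, 2.299 and 1.71 CPM with H-151. The BX-795 libraries lay near the 7.41 ± 0.601 CPM of R4KO_2 Vehicle and the H-151 libraries well below it (log2 fold change 1.62, edgeR adjusted p = 1.54e-06). CSF1, the macrophage growth factor, rose by a log2 fold change of 0.6. TNFSF9, the ligand of 4-1BB, was the 1 cytokine that fell, with 38.6, 34.5 and 39.2 CPM with BX-795 and 50.03, 51.7 and 50.7 CPM with H-151, so it and its receptor TNFRSF9 differed in opposite directions. Its log2 fold change was -0.44 (edgeR adjusted p = 0.00124).

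Of 10 chemokines tested, 2 rose and none fell. CCL20, which attracts cells bearing CCR6, had 18.6, 19.01 and 18.3 CPM with BX-795, against 11.6, 11.5 and 10.2 CPM with H-151, and 2.06 ± 0.25 CPM in R4KO_2 Vehicle. CXCL2, a neutrophil attractant, had 20.2, 20.3 and 21.6 CPM with BX-795, against 14.02, 13.8 and 12.4 CPM with H-151, and 4.84 ± 0.655 CPM in R4KO_2 Vehicle. Both chemokines were thus above vehicle with either inhibitor and highest with BX-795, with log2 fold changes between the inhibitors of 0.75 (edgeR adjusted p = 1.62e-05) and 0.63 (edgeR adjusted p = 6.17e-04). CXCL16, the chemokine with the highest level, did not pass the test, at a log2 fold change of -0.11 (95% interval -0.24 to 0.02). In the wider TNF family 5 of 15 tested members rose and 1, TNFSF9, fell. Those that rose included TNFRSF10D, a decoy receptor for the death ligand TRAIL (38.98 ± 1.21 CPM with BX-795 and 27.8 ± 0.502 CPM with H-151, log2 fold change 0.49, edgeR adjusted p = 1.54e-06), and TNFRSF10B, a signalling receptor for the same ligand (0.22, edgeR adjusted p = 0.0482, a call lost whenever 1 library was left out). Without BX-795 replicate 3 or H-151 replicate 2 the 5 rises were 3.

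Acute phase and complement genes rose in 7 of 14 tested members (50%), against 5.67% over all genes, and fell in none. Their median log2 fold change was 0.26. Besides C3 and PTX3, C1S, a protease of the first complement component, had 86.99, 83.6 and 84.6 CPM with BX-795, against 57.6, 62.5 and 63.7 CPM with H-151. The H-151 libraries were all below those of BX-795 (log2 fold change 0.47, edgeR adjusted p = 5.65e-06). SERPINA1, the elastase inhibitor antitrypsin, had 3.55, 3.08 and 3.496 CPM with BX-795, against 1.55, 1.58 and 1.82 CPM with H-151, and 2.67 ± 0.171 CPM in R4KO_2 Vehicle. R4KO_1 Vehicle averaged 3.5 ± 0.438 CPM, and its libraries overlapped those of BX-795, whose mean was 3.37 ± 0.256 CPM. The log2 fold change between the inhibitors was 1.03 (edgeR adjusted p = 1.19e-04). Summed counts of SAA1, the acute phase apolipoprotein, were 144 with BX-795 and 46 with H-151. It was named after its values were seen.

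**Figure D3:**
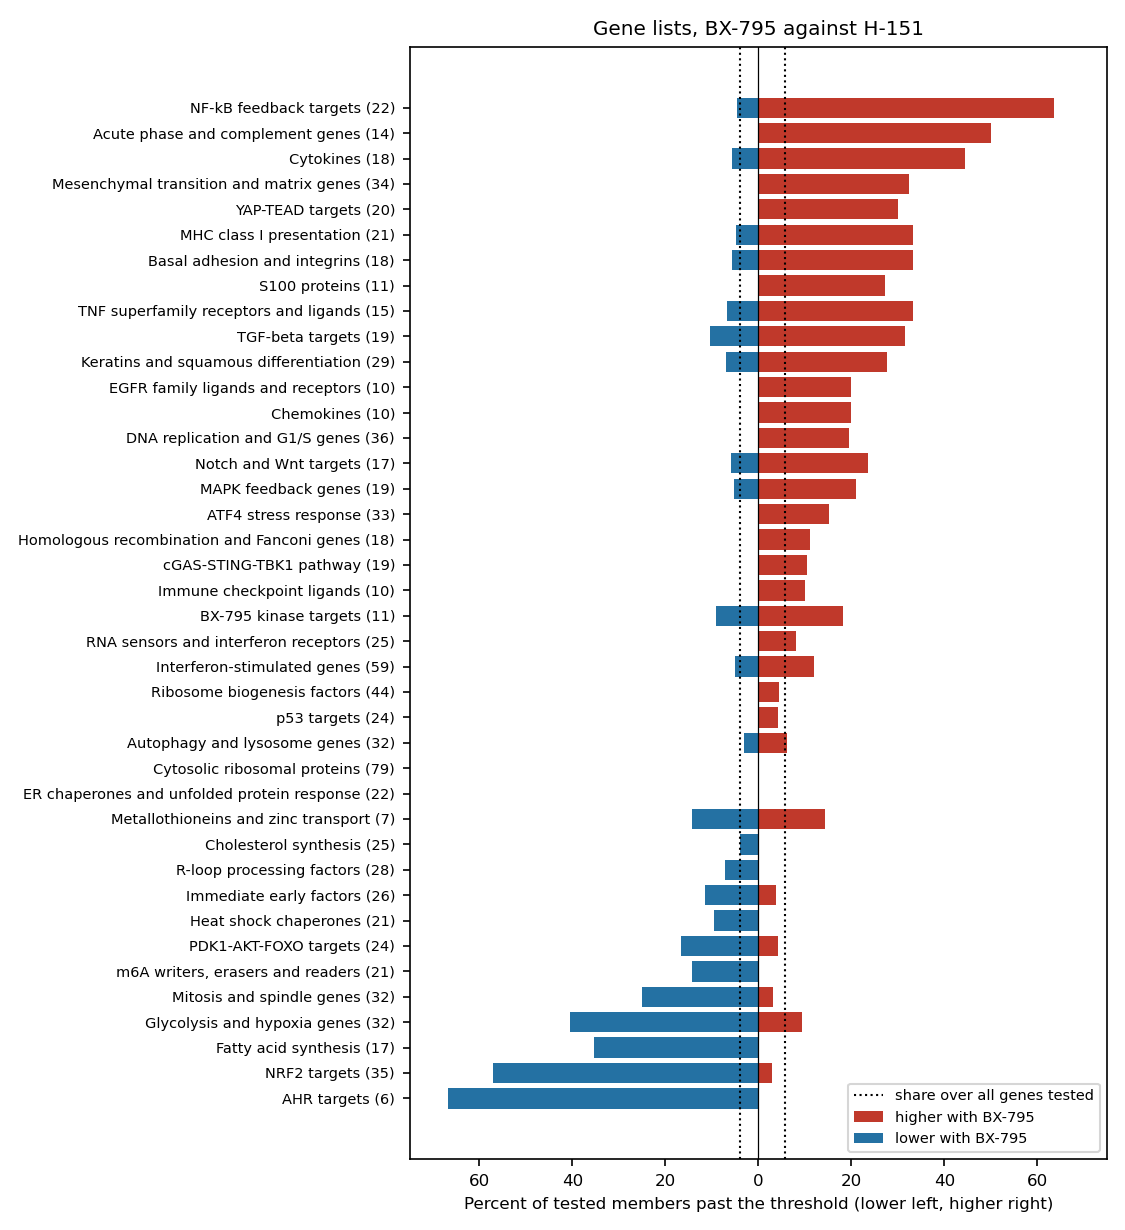
Share of the tested members of each gene list, with the number tested in brackets, that were higher (red, to the right) or lower (blue, to the left) with BX-795 at an adjusted p under 0.05. Dotted lines mark the shares over all genes tested, 5.67% higher and 3.99% lower. NF-kB feedback targets, acute phase genes and cytokines lie at the top, and NRF2 and AHR targets at the bottom.

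The upstream pathway itself differed little at the level of its transcripts. TBK1 had 58.6, 55.1 and 56.8 CPM with BX-795, against 56.5, 59.7 and 59.1 CPM with H-151, and IRF3 had 76.6, 79.8 and 80.8 CPM with BX-795, against 78.5, 77.5 and 79.2 CPM with H-151. Both overlapped between the groups, with log2 fold changes of -0.04 (95% interval -0.15 to 0.08) for TBK1 and 0.01 (-0.09 to 0.12) for IRF3. STING1, which encodes STING, had 38.1, 35.1 and 36.5 CPM with BX-795 and 32.2, 30.8 and 31.2 CPM with H-151. Its libraries did not overlap, but the difference did not pass the edgeR test (adjusted p = 0.101, log2 fold change 0.22, 95% interval 0.05 to 0.40). CGAS was similar, at a log2 fold change of 0.13 (edgeR adjusted p = 0.24).

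Among the 19 tested genes of the cGAS, STING and TBK1 pathway 2 rose and none fell. IKBKE had 26.7, 24.9 and 25.2 CPM with BX-795, against 17.8, 16.4 and 16.9 CPM with H-151. The 3 BX-795 libraries were also above the 15.6 ± 0.119 CPM of R4KO_2 Vehicle, where the H-151 libraries were close to it (log2 fold change 0.59, edgeR adjusted p = 1.67e-05). OPTN, optineurin, an autophagy receptor that TBK1 phosphorylates, had 43.3, 47.2 and 44.9 CPM with BX-795, against 28.04, 31.4 and 29.8 CPM with H-151, and 78.4 ± 4.14 CPM in R4KO_2 Vehicle, above both (log2 fold change 0.6, edgeR adjusted p = 3.34e-05). The other 17 members had 95% intervals within 1.5-fold in either direction. Of 11 kinases that BX-795 is known to inhibit, IKBKE and NUAK1 rose (0.36 for NUAK1, edgeR adjusted p = 0.00125) and AURKB fell (-0.17, edgeR adjusted p = 0.00781), and the other 8 had intervals within 1.5-fold. These are transcript levels, and no kinase activity was measured.

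Most interferon transcripts were at or near the limit of detection with both inhibitors, and IFNE was not. IFNB1, interferon beta, had 0, 0 and 2 counts with BX-795, 0 in all 3 H-151 libraries and 2, 2 and 3 counts in R4KO_2 Vehicle, too few for the test. IFNL1, a type III interferon, had 0 counts in all 3 BX-795 libraries, 1 count in 1 H-151 library, and 8, 7 and 14 counts in R4KO_2 Vehicle. The difference between the inhibitors could not be read at this depth for either gene. IFNA1 and IFNE, the 2 ligands tested, did not pass the test. IFNA1 had 16 counts over the BX-795 libraries and 7 over the H-151 libraries (log2 fold change 1.09, 95% interval -0.28 to 2.47, edgeR adjusted p = 0.333). IFNE, an interferon of epithelia, had 64, 49 and 66 counts with BX-795, against 56, 40 and 50 with H-151, which overlap.

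Of 59 interferon-stimulated genes tested 7 rose (11.9%) and 3 fell (5.1%), against 5.67% and 3.99% over all genes, so the share that fell was near that of all genes, and the median log2 fold change was 0.06. Leaving out a library gave 4 to 5 rises and 1 to 3 falls: 4 rises without BX-795 replicate 2, and 1 or 2 falls without BX-795 replicate 1 or 2 or H-151 replicate 1 or 2. OASL, an oligoadenylate synthetase-like antiviral protein (chr12:121019111-121039242, minus strand), was the largest fall of the comparison among genes with a mean log2 CPM of at least 2. It had 7.75, 6.74 and 7.803 CPM with BX-795, against 13.5, 13.03 and 13.9 CPM with H-151. No libraries overlapped (log2 fold change -0.85, SE 0.19, edgeR adjusted p = 0.00495), but both groups were far below the 255 ± 25.2 CPM of R4KO_2 Vehicle. With robust estimation of the dispersion its adjusted p was 0.0668. In the other direction OAS3, which makes the messenger that activates RNase L, had 177, 168 and 172 CPM with BX-795, against 133, 132 and 135 CPM with H-151. The groups were apart (log2 fold change 0.37, edgeR adjusted p = 5.76e-05), and both lay below the 360.4 ± 11.4 CPM of R4KO_2 Vehicle. UBE2L6, the conjugating enzyme for ISG15, rose by a log2 fold change of 0.43 (edgeR adjusted p = 1.68e-05) and PARP10, an ADP-ribosyltransferase, by 0.35 (edgeR adjusted p = 5.37e-04).

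Of the 49 interferon-stimulated genes that did not pass the test, 34 had a 95% interval within 1.5-fold and 15 had an interval that reached further. LGALS3BP, the member with the highest level, had 506, 492 and 525 CPM with BX-795, against 523, 517 and 517 CPM with H-151, with overlapping libraries and a log2 fold change of -0.03 (95% interval -0.10 to 0.04). The 6-library fit called 15 higher and 7 lower of 56 tested, where it called 9.93% higher and 8.82% lower over all genes. Among 25 RNA sensors, interferon receptors and their signalling factors 2 rose, the kinase JAK1 (0.26, edgeR adjusted p = 8.61e-05) and the receptor subunit IFNGR2 (0.24, edgeR adjusted p = 0.0139, a call kept in 2 of the 6 fits with a library left out), and none fell. The share that rose, 8%, was near the 5.67% over all genes.

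MHC class I presentation genes leaned upward, with 7 of 21 rising, 1 falling and a median log2 fold change of 0.16. The members that rose were parts of the proteasome and of peptide trimming, transport and loading. PSMB9, an immunoproteasome subunit, had 20.3, 20.4 and 21.02 CPM with BX-795, against 12.3, 11.6 and 11.9 CPM with H-151, and PSMB8, its partner, had 71.8, 66.6 and 71.9 CPM with BX-795, against 50.4, 48.7 and 52.1 CPM with H-151. The groups did not overlap for either, with log2 fold changes of 0.79 (edgeR adjusted p = 3.21e-07) and 0.48 (edgeR adjusted p = 7.35e-07). The 2 genes overlap each other on opposite strands, so reads of one may be counted to the other. TAPBP, tapasin, which holds class I to the peptide transporter, rose by a log2 fold change of 0.37, and PSME2, a proteasome activator subunit, by 0.27. CANX, the chaperone calnexin, fell (1746, 1813 and 1738 CPM with BX-795 and 1947, 1955 and 1988 CPM with H-151, log2 fold change -0.15, edgeR adjusted p = 0.00263). HLA-B, HLA-C and B2M, named after their values were seen, did not pass the test, at log2 fold changes of 0.18 (95% interval 0.05 to 0.30), 0.12 (0.03 to 0.21) and 0.07 (-0.01 to 0.16), and reads of the HLA genes may be shared between them. The 6-library fit called 13 of the 21 higher and 1 lower, where it called 9.93% higher and 8.82% lower over all genes. CD274, which encodes the checkpoint ligand PD-L1, was the 1 of 10 checkpoint ligands that rose, with 3.02, 3.13 and 2.98 CPM with BX-795, against 1.898, 1.87 and 1.94 CPM with H-151 (log2 fold change 0.67, edgeR adjusted p = 0.01).

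**Figure D4:**
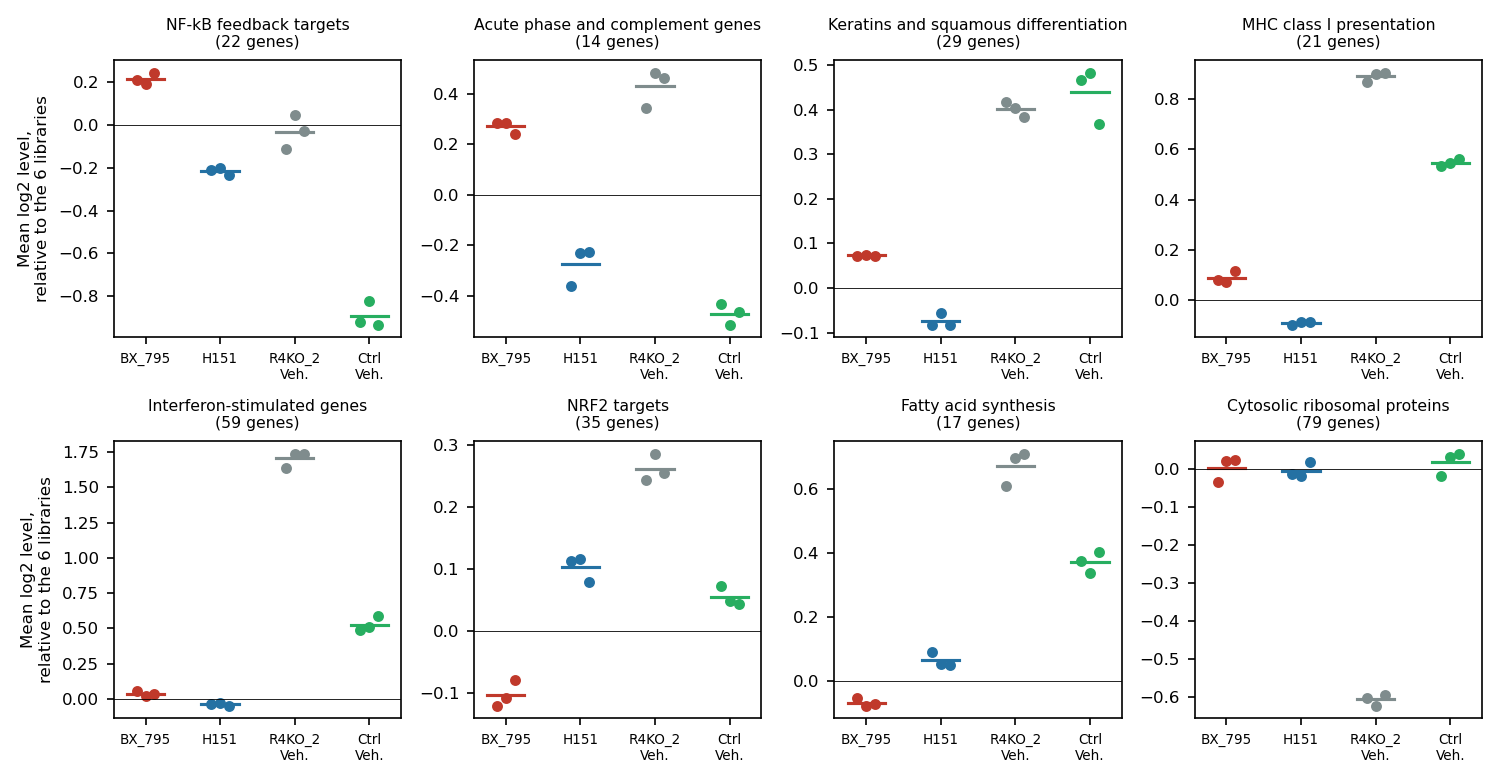
Mean log2 level of the tested members of 8 gene lists in each library, relative to their mean over the 6 inhibitor libraries, for KO_2 BX_795, KO_2 H151, R4KO_2 Vehicle and Ctrl Vehicle; bars are group means and each panel has its own y axis. In the NF-kB panel the BX-795 libraries lie at 0.19 to 0.25 and the H-151 libraries at -0.23 to -0.20, while in the panel of interferon-stimulated genes the BX-795 libraries lie at 0.02 to 0.06 and the H-151 libraries at -0.05 to -0.03, far below R4KO_2 Vehicle.

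The keratins KRT14 and KRT5, intermediate filaments of basal squamous cells, were higher with BX-795. KRT14 had 177, 187 and 189 CPM with BX-795, against 105, 109 and 103 CPM with H-151. All BX-795 libraries were above and all H-151 libraries below R4KO_2 Vehicle (119.98 ± 2.43 CPM), and the log2 fold change was 0.81 (SE 0.05, edgeR adjusted p = 1.36e-09). KRT5, the partner of KRT14, had 466, 468 and 463 CPM with BX-795, against 342, 328 and 343 CPM with H-151, and KRT17, a keratin of stressed and wounded epithelium, had 416, 386 and 425 CPM with BX-795, against 284, 284 and 279.5 CPM with H-151. Neither gene's groups overlapped (log2 fold changes 0.46 and 0.53, edgeR adjusted p = 1.39e-07 and 3.10e-06). KRT6A rose by 0.48, and its reads may be shared with KRT6B. In all, 8 of 29 keratin and squamous differentiation genes rose and 2 fell, with a median log2 fold change of 0.06. The 2 that fell, named after their values were seen, were the desmosomal cadherins DSC3 (-0.32) and DSG3 (-0.40).

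Genes of the basement membrane and its anchors rose as well, 6 of 18 tested, and 1 fell, LAMA5, a laminin chain (-0.21), named after its values were seen. COL7A1, the collagen of anchoring fibrils, had 779, 713 and 767 CPM with BX-795, against 484, 499 and 525 CPM with H-151. The groups were apart, with a log2 fold change of 0.58 (edgeR adjusted p = 6.00e-07). LAMB3, a laminin chain, rose by 0.45 and the integrin chain ITGAV by 0.24. The 6-library fit called 12 of 17 higher and 2 lower, where it called 9.93% higher and 8.82% lower over all genes. Of 34 mesenchymal and matrix genes 11 rose and none fell, with a median log2 fold change of 0.19. MMP9, a gelatinase whose gene overlaps SLC12A5-AS1 on the other strand, had 114, 86 and 137 counts with BX-795, against 20, 22 and 15 counts with H-151 and 8, 6 and 2 in R4KO_2 Vehicle. The BX-795 libraries stood apart from all others (log2 fold change 2.49, edgeR adjusted p = 3.50e-08). PLAU, the urokinase, had 166, 158 and 163 CPM with BX-795, against 88.1, 94.8 and 85.9 CPM with H-151 (log2 fold change 0.86, edgeR adjusted p = 1.16e-04). COL5A1 and THBS1, a fibrillar collagen and a matricellular protein, rose by 0.21 and 0.33. Leaving out a library gave 7 to 10 rises, with 7 without BX-795 replicate 3 or H-151 replicate 2 or 3. Of the fibroblast markers, COL1A1 is itself on this list, PDGFRA was at 0 in both groups, and DCN, LUM and PDGFRB were all under 1 CPM.

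TGF-beta targets rose in 6 of 19 (31.6%) and fell in 2 (10.5%), against 5.67% and 3.99% over all genes. PMEPA1, a membrane protein that dampens the TGF-beta response, had 131, 128 and 127 CPM with BX-795, against 71.1, 65.8 and 68.1 CPM with H-151, and 34.2 ± 2.82 CPM in R4KO_2 Vehicle. It was above vehicle with both inhibitors and highest with BX-795 (log2 fold change 0.91, edgeR adjusted p = 7.33e-09); it overlaps NKILA on the other strand. SMAD3, a mediator of the pathway, rose by 0.45, TSC22D1, a leucine zipper factor that TGF-beta induces, by 0.36 and the receptor TGFBR2 by 0.27. The 2 that fell, named after their values were seen, were ID2 (-0.30) and SMAD6 (-0.28), both better known as targets of bone morphogenetic proteins. Targets of YAP and TEAD, which respond to cell shape, rose in 6 of 20 (30%) and fell in none. Among them F3, tissue factor, rose by 0.58, NUAK2 by 0.42, NT5E by 0.3 and CRIM1 by 0.2. The list gave 3 rises without BX-795 replicate 1 or 2 or H-151 replicate 3, and 4 or 5 without each other library. Among 17 Notch and Wnt genes HES1, a Notch effector, had 74.5, 75.6 and 78.2 CPM with BX-795, against 53.96, 49.4 and 51.03 CPM with H-151 (log2 fold change 0.56, edgeR adjusted p = 4.28e-04). The Notch ligands JAG1 and DLL1 also rose (0.31 and 0.19), as did the Wnt antagonist DKK1 (0.28), named after its values were seen, and the receptor NOTCH1 fell (-0.22). These 4 rises were 2 without BX-795 replicate 1 or 3 or H-151 replicate 2 or 3. Of 11 S100 genes 3 rose, S100A14, S100A3 and S100A2, by 0.34, 0.89 and 0.19.

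Feedback genes of the MAPK cascade rose in 4 of 19 (21.1%) and fell in 1 (5.3%), against 5.67% and 3.99% over all genes. DUSP6, the phosphatase that inactivates ERK, had 21.4, 22.7 and 21.8 CPM with BX-795, against 10.8, 11.6 and 10.9 CPM with H-151, and 28.8 ± 2.59 CPM in R4KO_2 Vehicle. The H-151 libraries were the low ones (log2 fold change 0.99, edgeR adjusted p = 4.13e-04). DUSP2, another of these phosphatases, fell (-0.28, edgeR adjusted p = 0.00541), while DUSP10 and PHLDA1 rose (0.41 and 0.46), calls that held in 1 of the 6 fits with a library left out. EGFR and its ligand TGFA rose by 0.24 and 0.31, and TGFA lost its call whenever a library was left out. Immediate early factors gave 1 rise and 3 falls in 26: JUNB, an AP-1 subunit, had 281, 286 and 294 CPM with BX-795 against 204, 188 and 200.4 CPM with H-151 (log2 fold change 0.54, edgeR adjusted p = 1.06e-04), and FOSB, JUND and EGR3 fell by 0.32, 0.38 and 0.52 on the log2 scale. PDK1 and AKT restrain FOXO factors, and of 24 FOXO-linked genes 1 rose and 4 fell. IRS1, an insulin receptor substrate, rose by 0.71, while TXNIP, a regulator of glucose uptake, had 134, 136 and 133 CPM with BX-795 and 183, 184 and 187 CPM with H-151 (log2 fold change -0.46, edgeR adjusted p = 3.61e-04). BNIP3, a mitophagy receptor, and BCL6, a repressor, also fell (-0.27 and -0.43). Leaving out a library gave 1 to 3 rises of MAPK feedback genes, with 3 in the fit without H-151 replicate 2 and 1 or 2 in the others, 1 to 3 falls of immediate early factors, with 1 without BX-795 replicate 2 or H-151 replicate 1, and 2 to 3 falls of FOXO-linked genes, with 2 without BX-795 replicate 2 or 3 or H-151 replicate 3.

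NRF2 drives the genes of glutathione, thioredoxin, NADPH and iron storage, and its targets were the list with the most falls by number. Of 35 tested members 20 fell (57.1%) and 1 rose (2.9%), against 3.99% lower and 5.67% higher over all genes. Their median log2 fold change was -0.26. GCLC, the catalytic subunit of the first enzyme of glutathione synthesis, had 129, 125 and 120.02 CPM with BX-795, against 162, 163 and 164 CPM with H-151. Its BX-795 libraries were near the 118 ± 7.46 CPM of R4KO_2 Vehicle and its H-151 libraries above it (log2 fold change -0.39, edgeR adjusted p = 4.40e-06). GPX2, a glutathione peroxidase, fell by 0.39 and GSR, glutathione reductase, by 0.33 on the log2 scale. FTL, the ferritin light chain, had the highest level of the list, with 1595, 1608 and 1758 CPM with BX-795 and 2535, 2065 and 2129.9 CPM with H-151 (log2 fold change -0.44, edgeR adjusted p = 2.78e-04). One H-151 library was well above the other 2, and the groups did not overlap. The 1 member that rose, named after its values were seen, was the transporter ABCC3 (0.48). With a library left out in turn 17 to 19 of the 35 stayed lower. The antioxidant response element was in 7 of the 25 NRF2 target promoters in the table (28%), against 15.2% of all.

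The aryl hydrocarbon receptor, AHR, induces a small set of xenobiotic genes, and 4 of the 6 tested fell. CYP1A1, its classic target, had 2.65, 3.32 and 2.83 CPM with BX-795, against 5.18, 5.22 and 4.34 CPM with H-151, and 18.3 ± 0.72 CPM in R4KO_2 Vehicle. CYP1B1, a related hydroxylase, had 6.81, 6.06 and 5.45 CPM with BX-795, against 9.53, 10.1 and 8.72 CPM with H-151, and 33.2 ± 1.93 CPM in R4KO_2 Vehicle. Both were lowest with BX-795 and far below vehicle with either inhibitor, with log2 fold changes of -0.75 (edgeR adjusted p = 0.00126) and -0.63 (edgeR adjusted p = 3.39e-04). TIPARP, which feeds back on AHR, fell by 0.37 on the log2 scale, and the fourth gene was NQO1, which is also on the NRF2 list (-0.22). CYP1B1 overlaps genes on the other strand.

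Of the 10 largest falls, most belonged to none of these lists. SERPINB13, a protease inhibitor of squamous epithelium, had 3.06, 3.61 and 3.35 CPM with BX-795, against 5.65, 6.13 and 6.13 CPM with H-151 (log2 fold change -0.84, edgeR adjusted p = 7.68e-05). DHRS2, a mitochondrial and nuclear reductase, had 6.32, 6.45 and 6.66 CPM with BX-795, against 12.1, 10.6 and 11.98 CPM with H-151 (log2 fold change -0.84, edgeR adjusted p = 2.16e-05). SLC12A3, a sodium chloride cotransporter best known from the kidney, had 14.4, 14.4 and 16.05 CPM with BX-795, against 24.3, 25.2 and 26.1 CPM with H-151 (log2 fold change -0.75, edgeR adjusted p = 0.00251). DHRS2 and SLC12A3 were both under 1 CPM in R4KO_2 Vehicle, at 0.622 ± 0.029 and 0.267 ± 0.0533 CPM, and SERPINB13 was at 47.04 ± 3.44 CPM there. The remaining 6 of the 10 largest falls were SLC12A8 (-0.7), C5AR1, the receptor of the complement fragment C5a (-0.58, a call lost in 3 of the 6 fits with a library left out), KLHL4 (-0.55, lost in all 6), the noncoding RNAs UCA1 (-0.56) and MIR210HG (-0.56), and CYP1B1.

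Glycolysis and hypoxia genes fell in 13 of 32 tested members (40.6%) and rose in 3 (9.4%). Over all genes 3.99% were lower and 5.67% higher. The median log2 fold change of the list was -0.13. Leaving out a library gave 7 to 11 falls, with 7 without BX-795 replicate 1 or H-151 replicate 1 and 8 without H-151 replicate 2, and 1 to 2 rises, with 1 without BX-795 replicate 3 or H-151 replicate 1 or 2. The differences were small and the replicates close to each other. LDHA, lactate dehydrogenase A, had 3140.0, 3165 and 3189.6 CPM with BX-795, against 3655, 3677 and 3606 CPM with H-151, and ENO1, enolase, had 4274, 4341 and 4414 CPM with BX-795, against 4933, 4855 and 4798 CPM with H-151. The libraries of each gene were apart, at log2 fold changes of -0.2 (edgeR adjusted p = 1.05e-04) and -0.16 (edgeR adjusted p = 4.13e-04). The 3 that rose were PFKFB4, which makes the activator of phosphofructokinase, and, named after their values were seen, PFKL (0.17) and VEGFA (0.39). PFKFB4 had 33.9, 33.8 and 32.4 CPM with BX-795, against 21.7, 20.6 and 21.8 CPM with H-151 (log2 fold change 0.64, edgeR adjusted p = 5.91e-06). Fatty acid synthesis genes fell in 6 of 17 and rose in none. SREBF1, the transcription factor of the pathway, had 374, 359 and 388 CPM with BX-795, against 454, 434 and 445 CPM with H-151 (log2 fold change -0.25, edgeR adjusted p = 7.52e-05), and the desaturase FADS1, malic enzyme ME1 and the carboxylase ACACA fell by 0.28, 0.28 and 0.18 on the log2 scale. Of 25 cholesterol synthesis genes only EBP, the sterol isomerase, fell (-0.19), where the 6-library fit called 8 lower. Over all genes that fit called 8.82% lower. With 15 libraries the share called lower was 4% of the list, near the 3.99% over all genes, but the list leaned downward. All BX-795 libraries lay below all H-151 libraries in 12 of the 25 and above them in 1. Over all genes these shares were 16.4% and 17.3%. The median log2 fold change of the list was -0.095.

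Mitotic genes fell in 8 of 32 members (25%) and rose in 1 (3.1%). Genes of DNA replication and G1/S rose in 7 of 36 (19.4%) and fell in none. Over all genes 3.99% were lower and 5.67% higher. PLK1, the polo-like kinase that drives mitotic entry, had 180.3, 179.7 and 188 CPM with BX-795, against 215, 203 and 206 CPM with H-151. CDC25B, the phosphatase that activates mitotic kinase, had 262, 258 and 272 CPM with BX-795, against 317, 306 and 308 CPM with H-151. The groups were apart in both genes, by log2 fold changes of -0.19 (edgeR adjusted p = 0.0243) and -0.23 (edgeR adjusted p = 8.78e-04), and the member that rose, BIRC5, named after its values were seen, did so by 0.13. Of the 23 mitotic genes not past the test, all had a 95% interval within 1.2-fold. The G1 cyclins CCND1, CCND2 and CCNE1 rose by 0.26, 0.29 and 0.27, and thymidylate synthase, TYMS, by 0.16. Leaving out a library gave 2 to 6 mitotic falls, the most without BX-795 replicate 2, and 2 to 6 replication rises, the most without H-151 replicate 2, and the call of PLK1 held in 2 of these 6 fits.

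The remaining lists are given together here, and in some of them no member passed the test. None of 79 cytosolic ribosomal proteins and none of 22 ER chaperones and unfolded protein response genes passed the edgeR test, with 7 and 4 at an unadjusted p under 0.05 and 1 of each called by DESeq2, and 76 of the 79 and 18 of the 22 had a 95% interval within 1.2-fold. RPL10 and PDIA6 were the members with the lowest p in these lists, at log2 fold changes of -0.1 (edgeR adjusted p = 0.0591) and 0.1 (edgeR adjusted p = 0.0531). Of 44 ribosome biogenesis factors UTP14A and NOLC1 rose by 0.15 and 0.12, and neither call held with a library left out. Of 33 genes of the ATF4 stress response 5 rose (15.2%), PHGDH (0.21), GPT2 (0.23), WARS1 (0.33), DDIT4 (0.27) and VEGFA, and none fell. All BX-795 libraries lay above all H-151 libraries in 16 of the 33 and below them in 4. Over all genes these shares were 17.3% and 16.4%. The 6-library fit called 13 higher and 2 lower, where it called 9.93% higher and 8.82% lower over all genes. The fits with a library left out called 3 or 4 higher. Of 21 heat shock genes HSP90AB1 and DNAJB4 fell (-0.11 and -0.21), and of 24 p53 targets TNFRSF10B alone was called. Of 28 R-loop factors, which resolve RNA paired with DNA, ALYREF, an RNA export adaptor, had 124, 107 and 128 CPM with BX-795 and 149.6, 167 and 158 CPM with H-151 (log2 fold change -0.4, edgeR adjusted p = 3.24e-05), and the helicase DHX9 fell by 0.12. Of 21 genes that write, erase or read m6A, 3 readers fell, IGF2BP2, YTHDC1 and YTHDC2, by 0.25, 0.15 and 0.14. The fit without BX-795 replicate 2 gave 3 falls on that list, and the fits without each other library had 1. Of 18 recombination genes 2 rose, among them RBBP8 (0.19), of 32 autophagy and lysosome genes OPTN and BECN1 rose (0.26 for BECN1) and GLA fell (-0.33), and of 7 metallothionein and zinc genes MT1E rose (0.25) and SLC39A10 fell (-0.2). Some of these shares were near those over all genes, 5.67% higher and 3.99% lower. They were ribosome biogenesis factors (4.5% higher), p53 targets (4.2% higher) and autophagy and lysosome genes (6.2% higher, 3.1% lower). Other shares lay above those over all genes. They were ATF4 genes (15.2% higher), recombination genes (11.1% higher), m6A genes (14.3% lower), heat shock genes (9.5% lower) and R-loop factors (7.1% lower). Metallothionein and zinc genes were also above, with 14.3% in each direction.

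Against R4KO_2 Vehicle, both inhibitor groups differed in most genes: 5227 (36.4%) were higher and 5330 (37.1%) lower with BX-795, and 5127 (35.7%) were higher and 5303 (37%) lower with H-151. The 2 comparisons share the vehicle libraries, and each shares its inhibitor libraries with the comparison above, so values are only set side by side here. NF-kB feedback targets had a median log2 fold change against vehicle of 0.26 with BX-795 and -0.24 with H-151. Interferon-stimulated genes had -1.63 with BX-795 and -1.86 with H-151. NRF2 targets had -0.24 with BX-795 and -0.02 with H-151. The fall of interferon-stimulated genes below this vehicle group was thus of like size with the 2 compounds, while NF-kB targets were above vehicle with BX-795 and below it with H-151. Single genes show both patterns: OASL was -5.09 with BX-795 and -4.24 with H-151 on the log2 scale against vehicle, and TNFRSF9 was 0.06 with BX-795 and -1.53 with H-151. None of these differences from R4KO_2 Vehicle can be told apart from a possible difference in the cells treated, as stated with REXO4.

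H-151 was also given in the iR4 experiment, whose libraries are not among the 6. There 4916 of 14000 genes (35.1%) were higher and 5076 (36.3%) lower in H151_iR4 than in iR4. Of the genes higher with BX-795 than with H-151 in the knockout, 792 were tested there, and 447 (56.4%) fell and 174 (22%) rose with H-151. Of those higher by 1.5-fold or more 124 of 172 fell (72.1%), and of those higher by 2-fold or more 40 of 49 (81.6%). Of the 573 genes lower with BX-795, 304 (53.1%) rose and 160 (27.9%) fell. Over the 13839 genes tested in both experiments 36% fell and 35.4% rose. The share that fell with H-151 was thus above that over all genes in each set of genes higher with BX-795, and the share that rose was above it in the genes lower with BX-795; no test of these shares was made. With H-151 in iR4 cells IL32 had a log2 fold change of -3.18, C3 of -2.26, TNFRSF9 of -4.88, RELB of -2.39, IL6 of -4.63 and KRT14 of -1.13. NFKBIA was at -0.18, and KRT5 was at -0.03 and did not pass the test. OASL went the other way from the lower genes as a set, at -6.01. BX-795 was not given in that experiment, so this bears on H-151 only.

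**Figure D5:**
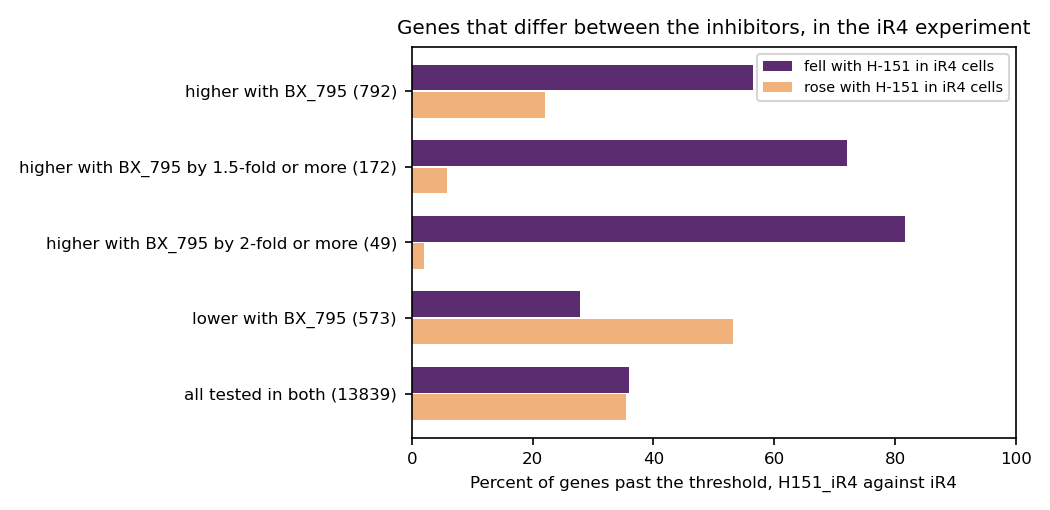
Percent of genes that fell (purple) or rose (orange) with H-151 in the iR4 experiment at an adjusted p under 0.05, for genes grouped by their call between BX-795 and H-151 in the knockout, with the number tested in brackets. The share that fell is 81.6% among genes higher by 2-fold or more, against 36% over all genes tested in both experiments.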

How the data were processed

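RNA from SCC1 cells was taken up in TRIzol, treated with DNase I, selected with oligo(dT), reverse transcribed with random hexamers and sequenced on a HiSeq instrument, per the labels' protocols; the molecule field of the labels reads genomic DNA. The deposited files hold raw read counts per gene. The submitters' processing notes list featureCounts 2.0.1, HISAT2 2.2.1, Trim Galore 0.6.4, DESeq2 1.42.0 and FastQC 0.11.9, and the builds hg38 and mm10. Their roles, the gene annotation and the use of strand were not given in the sources used here. Each file lists 35135 human genes, and repeated lines were used once. Reads of paralogs (KRT6A and KRT6B, the AKR1C, HLA and MT1 families) and of overlapping genes may be shared between them. Gene positions are those of GENCODE v29 on hg38.

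Counts of the 15 libraries of the knockout experiment were filtered with filterByExpr (minimum count 10), scaled by TMM and fitted with edgeR 4.0.16 (R 4.3.3) in one quasi-likelihood model with a coefficient per group and no covariate. The difference BX_795 minus H151 was tested with Benjamini-Hochberg adjustment over all 14348 genes at 0.05. The iR4 libraries were fitted apart in the same way. CPM values are scaled by TMM, except for the summed markers. Replicates differed by a median SD of log2 CPM of 0.064 with BX-795 and 0.0646 with H-151. No pair of replicates agreed within sampling noise. The members, the 41 lists (996 genes) and the rule for naming genes were chosen with earlier results of these data known. The rule names REXO4; the 10 largest rises and falls among called genes with no overlap between the groups and a mean log2 CPM of at least 2; up to 4 called genes of lowest p from each list, or the member of lowest p where none was called; CGAS, STING1, TBK1, IKBKE, IRF3 and IFNB1; and the member with the highest mean CPM of the interferon-stimulated, MHC class I, NF-kB, NRF2 and chemokine lists. Alternatives were DESeq2 1.42.0, other scalings and filters, robust dispersions, a minimum fold, fewer libraries, a replicate block and leaving out each library. Mouse libraries were not used, and some genes the rule names are not reported here. Promoters were searched on both strands for the NF-kB motif, the interferon-stimulated response element and the serum response element (by name), AP-1 (TGANTCA), the antioxidant response element (TGACNNNGC), the sterol element (TCACNCCAC), the amino acid response element (TGATGNAAN), the E-box (CACGTG) and the TATA box (TATAAA). The fits were tested on simulated data.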

Additional observations from a re-analysis of the deposited data

Results flagged for a closer look

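Only the 142 named genes were screened here, and the share of such genes over all genes tested is not given. The 6 genes below were singled out because they lay above R4KO_2 Vehicle with one inhibitor and below it with the other. Both differences from vehicle and the difference between the inhibitors passed edgeR's quasi-likelihood test. C3 differed by 2.3 on the log2 scale between BX-795 and H-151, at 1.95 with BX-795 and -0.35 with H-151 against vehicle. CTSS differed by 2.2, at 1.61 with BX-795 and -0.59 with H-151. SERPINA1 differed by 1.03, at 0.34 with BX-795 and -0.68 with H-151. KRT14 differed by 0.81, at 0.62 with BX-795 and -0.19 with H-151. NFKBIA differed by 0.7, at 0.29 with BX-795 and -0.41 with H-151. S100A14 differed by 0.34, at 0.25 with BX-795 and -0.09 with H-151. These directions hold for R4KO_2 Vehicle, and R4KO_1 Vehicle did not give the same for every gene. Its mean KRT14, 97.9 CPM, was below both inhibitor groups. Its SERPINA1 libraries, at 3.94, 3.06 and 3.49 CPM, overlapped those of BX-795, at 3.55, 3.08 and 3.496 CPM. The direction against R4KO_2 Vehicle cannot be told apart from a possible difference in the cells treated, as stated with REXO4.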

How the results depend on the processing

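Between BX-795 and H-151, no named gene that passed the test changed direction under any alternative run. IRF3, which did not pass, had a log2 fold change of 0.01 and of -0.005 without BX-795 replicate 3. The medians of 8 lists, all within 0.06 of 0, changed sign under some alternative, that of ribosomal proteins (0.001) also with DESeq2 or its scaling (-0.001) and that of Notch and Wnt targets (0.002) with DESeq2 (-0.008). The counts of genes, 814 higher and 573 lower, moved by over 1.5 times with other libraries in the fit (the cause was not tested): with 9 KO_2 libraries 1310 were higher and 1125 lower, and with the 6 inhibitor libraries 1405 and 1248. A minimum fold of 1.2 left 130 higher and 7 lower. At 2-fold or more, DESeq2 called 27 higher and 0 lower, in place of 65 and 2 (the cause was not tested), and shared 1135 of its 1179 calls at any fold with edgeR. The 2-fold lower count was 10 with no filter, 1 with a filter of 1 CPM, and 9 with either 6 or 9 libraries. Leaving out 1 library gave 492 to 621 higher and 299 to 394 lower genes, 47 to 62 higher and 2 to 6 lower at 2-fold, with fewer samples in each fit.

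Replicate numbers did not pair the samples: the correlations of same-numbered BX-795 and H-151 libraries were -0.013, 0.113 and 0.005. With the replicate number as a block, the fit of 6 libraries called 1443 higher and 1291 lower, 9 of them lower by 2-fold, and the fit of 15 libraries called 1 lower by 2-fold and shared 1264 of its 1307 calls.

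Of the 142 named genes, the calls of TGFA, TNFRSF10B, UTP14A, NOLC1 and KLHL4 were lost whichever library was left out. DESeq2 lost 4 named calls, SLC12A3, PHLDA1 and TGFA among them, and robust dispersions 10, OASL and UCA1 among them. The calls of HSP90AB1, DHX9, YTHDC1 and YTHDC2 held in 1 of the 6 fits with a library left out, and those of EGR3, MT1E, EBP, DDIT4 and DLL1 in 2; that of BCL6 held in 3, those of JUND, DNAJB4, CCNE1, TYMS, RBBP8 and CRIM1 in 4, and those of AURKB, ASPM, NT5E and S100A2 in 5. Genes under 1 CPM, such as IFNB1 and IFNL1, are limited by depth.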
